A study of Mus musculus with 12 samples.

Results

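The Bcl2 family sets how readily a cell dies through its mitochondria, and 10 of its genes were followed here among the 24421 genes of a count table from sorted mouse blood stem and progenitor cells. The 10 genes were taken by symbol. They were the survival genes Bcl2, Bcl2l1, Mcl1 and Bcl2a1b, the executioners Bax and Bak1, and the BH3-only death genes Bcl2l11, Bid, Bbc3 and Pmaip1. The cells were GFP+, lineage-negative, Kit+ and Sca-1+ (LSK) bone marrow cells of secondary recipient mice, that is, mice that received cells already carried through a first host. Each of 4 genotypes had 3 RNA-seq libraries. miR146aKO_Runx1mut libraries lacked miR-146a and carried Runx1S291fsX300, a frameshift form of Runx1. Runx1mut libraries carried Runx1S291fsX300 with miR-146a intact, and miR146aKO libraries (titled Mir-146 KO/Empty) lacked miR-146a with Runx1 wildtype. Wildtype libraries (titled Empty) were wildtype at both genes. The sources used here do not say what Empty stands for, how the mutant Runx1 was brought in, the age of the mice, or whether separate animals gave the 3 libraries of each genotype. P-values therefore measure only the spread between these libraries, which may be technical.

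Survival members of the family bind and hold the death members in check at the mitochondrial outer membrane. BH3-only members are made or activated when growth factor is lost, DNA is damaged or a death receptor is engaged, and they occupy the survival members or activate Bax and Bak directly. Activated Bax and Bak open the membrane, cytochrome c leaves, and caspases are switched on. Blood stem cells of mice depend on Mcl1, and B cells, T cells and granulocytes each rely on their own mix of survival members. miR-146a dampens Toll-like and IL-1 receptor signals to NF-kB, and Bcl2a1 genes and Bcl2l1 are known NF-kB targets.

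A microRNA pairs with its targets mainly through its seed (bases 2 to 8), so the seed of miR-146a was set against the 3′ UTRs of the family. The mature sequence, from RefSeq on GRCm38.p6 (chr11:43374435-43374456, minus strand), is shown with its seed in capitals.
mmu-miR-146a-5p: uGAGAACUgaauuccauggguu
A match was either of the 7-base motifs AGTTCTC and GTTCTCA, read on the strand of the transcript in GENCODE 3′ UTRs. It was found in 2 of the 10 genes (20.0%), against 4033 of 20954 protein-coding genes with a 3′ UTR (19.2%). Both were survival genes. Bcl2 held 1 match (chr1:106539561-106539567, minus strand), and Bcl2l1 held 2, at chr2:152781932-152781938 and chr2:152829103-152829109 on the minus strand. They are printed as the transcript reads, with the match in capitals.
Bcl2 site: gggagccactaaAGTTCTCttctgagc
Bcl2l1 site A: cccccacatctcAGTTCTCttggcctc
Bcl2l1 site B: atgagagcagcaAGTTCTCcccgcgtt
The 3′ UTRs of all protein-coding transcripts of a gene were searched. Site A lies near the 3′ end of Bcl2l1 (chr2:152780668-152831728, minus strand) and site B near its 5′ end. The longest 3′ UTR of Bcl2l1 is 1477 bases, so the 2 sites may belong to different transcripts. A match of letters does not show that the site is used. Neither Bcl2 nor Bcl2l1 had all libraries without miR-146a above all libraries with it in any of the comparisons given further on.

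Total counts ran from 3540043 to 7026393 per library, and the biological coefficient of variation over all genes was 0.809, which is wide. Mir146 had 14 counts in library A031, labelled miR146aKO_Runx1mut, and 0 counts in the other 11, the 6 with intact miR-146a included. That gene therefore checked no label, and A031 goes against its own. Members' fold changes that use its genotype and carry an SE are therefore also given without A031. The sort genes were present in every library, but unevenly. Kit averaged 187 CPM (read counts scaled to a common library size, with TMM factors) in miR146aKO_Runx1mut, 308 in Runx1mut, 44.0 in miR146aKO and 339 in wildtype. Ly6a, which encodes Sca-1, averaged 50.6 CPM in miR146aKO_Runx1mut, 138 in Runx1mut, 755 in miR146aKO and 142 in wildtype.

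Marker lists of other cell types differed between genotypes and are given here because the family differs between those cells. The summed level of 14 B lineage markers was 150.9 to 213 CPM in miR146aKO_Runx1mut, 70.4 to 335 in Runx1mut, 759 to 3426 in miR146aKO and 51.2 to 149 in wildtype libraries. Of these markers, Pax5 was at 0 in every wildtype library and no other list member was at 0 throughout a genotype. The 15 monocyte and macrophage markers summed to 1373 to 7837 CPM in miR146aKO_Runx1mut, 282 to 917 in Runx1mut, 584 to 11930 in miR146aKO and 328 to 634 in wildtype, with none at 0 in a whole genotype. Neutrophil markers, 15 of 16 measured, summed to 13760 to 60810 CPM in miR146aKO_Runx1mut, 2796 to 58380 in Runx1mut, 4090 to 12340 in miR146aKO and 2433 to 29010 in wildtype, again with none at 0. The 6 plasma cell markers summed to 134 to 544 CPM in miR146aKO_Runx1mut, 104 to 1771 in Runx1mut, 4022 to 13530 in miR146aKO and 44.0 to 935 in wildtype, with none at 0 in a whole genotype. The 14 T and NK markers summed to 58.8 to 666 CPM in miR146aKO_Runx1mut and 9.39 to 122 in Runx1mut. They summed to 276 to 1984 CPM in miR146aKO and 34.6 to 295 in wildtype, with 5, 1, 0 and 3 at 0 throughout these genotypes in turn. The 10 dendritic markers summed to 114.9 to 405 CPM in miR146aKO_Runx1mut and 126 to 202 in Runx1mut. They summed to 345 to 469 CPM in miR146aKO and 107 to 298 in wildtype, with Siglech at 0 in miR146aKO_Runx1mut. The 12 megakaryocyte markers summed to 44.3 to 2886 CPM in miR146aKO_Runx1mut, 284 to 2347 in Runx1mut, 124 to 173 in miR146aKO and 577.5 to 2510 in wildtype, where Gp6 was at 0. The 14 erythroid markers summed to 379.5 to 1170 CPM in miR146aKO_Runx1mut and 143 to 175 in Runx1mut. They summed to 173 to 545 CPM in miR146aKO and 203 to 480 in wildtype, with 2 or 3 at 0 throughout each genotype. The 9 mast and basophil markers summed to 100.1 to 434 CPM in miR146aKO_Runx1mut and 253 to 2499 in Runx1mut. They summed to 7.02 to 51.8 CPM in miR146aKO and 13.1 to 154 in wildtype, with 2, 0, 2 and 1 at 0 in turn. The 14 stromal and endothelial markers summed to 343 to 4310 CPM in miR146aKO_Runx1mut and 105 to 192 in Runx1mut. They summed to 192 to 5298 CPM in miR146aKO and 141 to 419.5 in wildtype, with 0, 3, 0 and 3 at 0 in turn. The 18 stem cell markers summed to 310 to 2364 CPM in miR146aKO_Runx1mut, 419 to 4295 in Runx1mut, 770 to 1743 in miR146aKO and 2494 to 5331 in wildtype. In bulk RNA, fewer cells of a type and less RNA per cell cannot be told apart, and the part of these marker levels in the results that follow was not tested.

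Levels of different genes were compared per kilobase of exon, over all annotated exons of a gene. Mcl1 was the most abundant member in the mean of each of the 4 genotypes and Bak1 was second. Over all 12 libraries Mcl1 averaged 103 CPM per kb, Bak1 49.6, Bcl2 25.7, Bcl2a1b 12.9, Bax 9.76, Bid 8.51, Bcl2l11 3.92, Pmaip1 3.69, Bcl2l1 3.06 and Bbc3 1.22. In wildtype libraries the first 3 overlapped, at 55.4 to 75.2 CPM per kb for Mcl1, 30.2 to 93.3 for Bak1 and 31.8 to 78.1 for Bcl2. In miR146aKO libraries Mcl1 stood apart at 131 to 219 CPM per kb, above every other member, while Bak1 (8.39 to 48.5), Bcl2a1b (5.03 to 48.9) and Bcl2 (26.9 to 36.7) overlapped. By genotype mean, Bcl2a1b had rank 10 of 10 in wildtype, rank 6 in Runx1mut and rank 3 in both miR146aKO_Runx1mut and miR146aKO. In miR146aKO_Runx1mut it was at 29.1 CPM per kb in A001, but at 2.39 in A031 and 5.34 in A051. In A031 and A051 Bcl2, Bax and Bid were all higher.

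**Figure D1:**
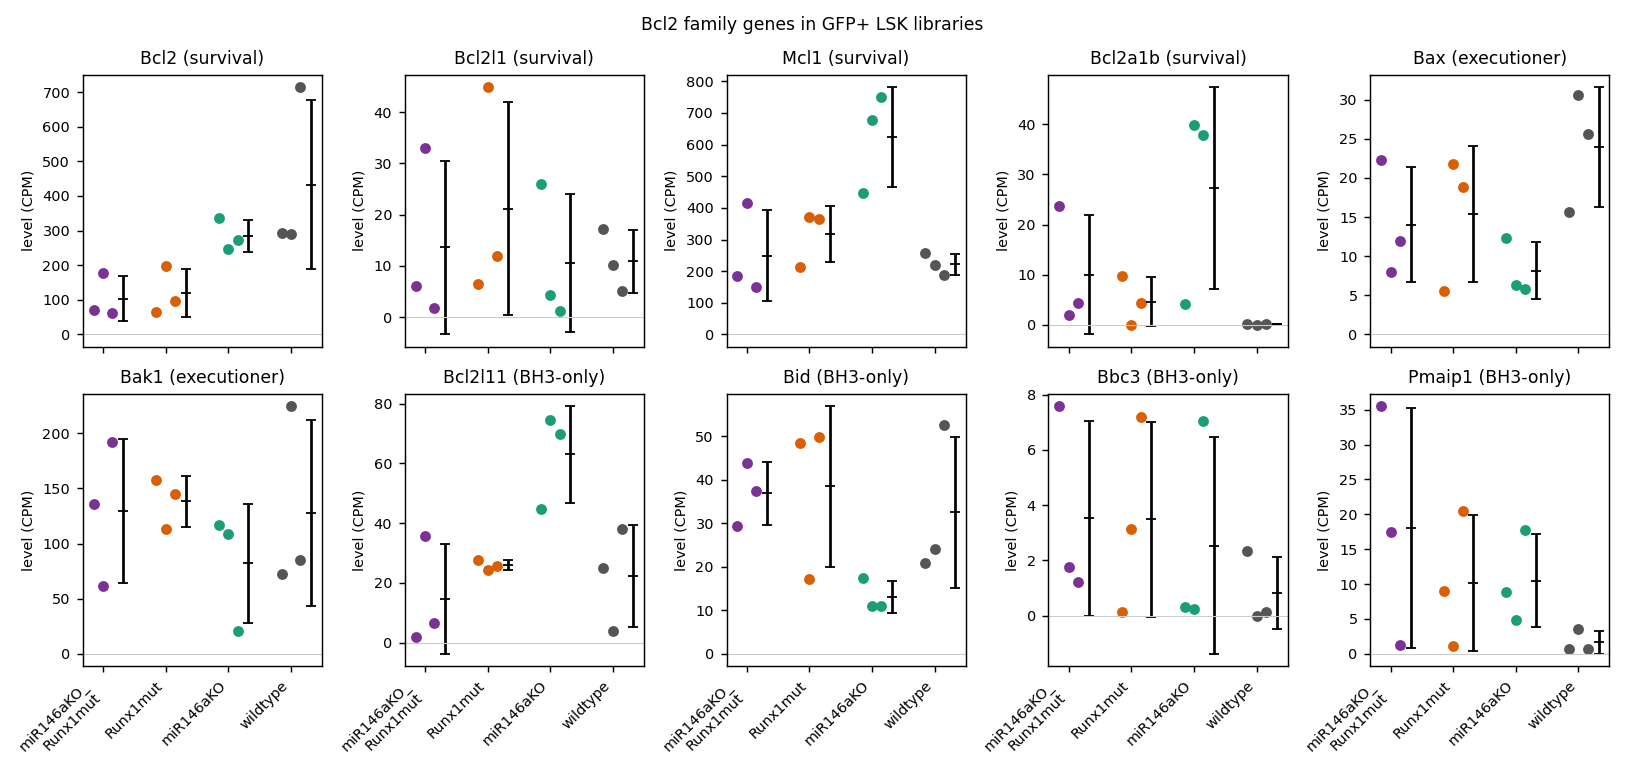
Level of each of the 10 genes in CPM (vertical axes, a separate linear scale for each gene) in the 3 libraries of each genotype (dots), with the mean and SD beside them. The 6 Runx1-mutant libraries lie at 61.6 to 197 CPM of Bcl2, below the other 6, Mcl1 is at 447 to 749 CPM in miR146aKO, and Bcl2a1b is at 0.142 CPM or less in wildtype.

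Bcl2, the founding survival gene of the family, was lower in all libraries with mutant Runx1. It was measured at 71.8, 178 and 61.6 CPM in miR146aKO_Runx1mut (A001, A031 and A051) and at 66.1, 197 and 95.8 CPM in Runx1mut (A021, A042 and A058). It was measured at 336, 246 and 273 CPM in miR146aKO (A047, A150 and A151) and at 292, 291 and 715 CPM in wildtype (A015, A040 and A053). The highest Runx1-mutant library was thus below the lowest of the other 6, and 0.651% of the 12744 genes tested had their 6 and 6 libraries apart in this way. Bcl2 was the only one of the 10 members that did. With both Runx1-mutant genotypes set against both others, the log2 fold change was -1.66 (SE 0.38) with an adjusted p of 0.126 by edgeR's quasi-likelihood test, so Bcl2 was not called. Leaving out each library in turn kept this value between -1.97 (without A031) and -1.37 (without A053, the library at 715 CPM), with an adjusted p between 0.0594 and 0.348.

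The direction was the same within each background, which follows from all Runx1-mutant libraries lying below all others. Against wildtype the log2 fold change of Bcl2 was -2.06 (SE 0.54, edgeR adjusted p = 0.369) in miR146aKO_Runx1mut and -1.85 (SE 0.53, adjusted p = 0.608) in Runx1mut. These comparisons share the wildtype libraries. The miR146aKO_Runx1mut value was -2.70 without A031 and -1.51 without A053. The Runx1mut value was -1.27 without A053 and -2.42 without A042. miR146aKO_Runx1mut against miR146aKO gave -1.46 (SE 0.53, adjusted p = 0.223), or -2.09 without A031. The effect of the Runx1 mutation on Bcl2 differed between the miR-146a backgrounds by 0.40 (95% interval -1.17 to 1.97), and miR146aKO against wildtype gave -0.60 (interval -1.71 to 0.51) with overlapping libraries. Summed stem cell markers were at 310 to 836.5 CPM in 4 of the Runx1-mutant libraries. They were at 2364 and 4295 CPM in A031 and A042, the libraries that held the most Bcl2 within their genotypes. In miR146aKO the sum was also highest where Bcl2 was, in A047 (1743 CPM). That sum was below those of A031 and A042, although A047 held more Bcl2. In wildtype A053, which held the most Bcl2, had the lowest sum (2494 CPM), and A015 had the highest (5331 CPM). Without strand, reads of the antisense gene D630008O14Rik, which overlaps Bcl2, cannot be told from its own.

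Mcl1, a short-lived survival protein that blood stem cells need, was highest in miR146aKO. It stood at 184, 416 and 148 CPM in miR146aKO_Runx1mut, 214, 373 and 366 CPM in Runx1mut, 447, 678 and 749 CPM in miR146aKO and 257, 218 and 189 CPM in wildtype. All 3 miR146aKO libraries were above the other 9, and the share of all genes that separate in this way was not counted. Against wildtype alone, 20.9% of all genes had libraries that did not overlap, in either direction. Against wildtype the log2 fold change was 1.496 in miR146aKO (SE 0.42, edgeR adjusted p = 0.120), 0.52 in Runx1mut (95% interval -0.36 to 1.40) and 0.17 in miR146aKO_Runx1mut (interval -0.71 to 1.05). miR146aKO_Runx1mut against miR146aKO gave -1.32 (SE 0.42, adjusted p = 0.168), and -1.91 without A031. The Mcl1 interaction, which is the effect of the Runx1 mutation without miR-146a minus its effect with miR-146a, was -1.84 (SE 0.58, edgeR adjusted p = 0.348). It ran from -2.43 without A031 to -1.58 without A051. The 3 miR146aKO libraries with the most Mcl1 were also the 3 with the most B lineage marker RNA. A150 and A151, which held most Mcl1, held most monocyte and macrophage marker RNA too. A051 went the other way, with 7837 CPM of monocyte and macrophage marker RNA and the lowest Mcl1 of all libraries (148 CPM). A047 had 584 CPM of that marker RNA beside 447 CPM of Mcl1. Within miR146aKO, A047 also had the most plasma cell marker RNA (13530 CPM) and the least Mcl1.

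Bcl2a1b, an NF-kB-driven survival gene of activated leukocytes, was close to absent in wildtype. It had 138, 11 and 18 counts in miR146aKO_Runx1mut, 68, 0 and 25 in Runx1mut, 13, 165 and 156 in miR146aKO and 1, 0 and 1 in wildtype. In CPM this was 23.8, 1.95 and 4.36 in miR146aKO_Runx1mut, 9.65, 0 and 4.28 in Runx1mut, 4.11, 39.9 and 38.0 in miR146aKO and 0.137, 0 and 0.142 in wildtype. A count of 0 allows up to 0.427 CPM in the Runx1mut library A042 and 0.666 CPM in the wildtype library A040. All miR146aKO and all miR146aKO_Runx1mut libraries were above all wildtype libraries, whereas Runx1mut overlapped wildtype through A042. Set against the 2 wildtype counts, the depth-scaled ratio was 101.1 in miR146aKO_Runx1mut (95% counting interval 27.6 to 842), 44.0 in Runx1mut (11.8 to 368) and 276 in miR146aKO (75.8 to 2287). These intervals cover counting error only, since amplified reads are not independent molecules.

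By edgeR the log2 fold change of Bcl2a1b against wildtype was 6.34 in miR146aKO_Runx1mut (SE 1.85, adjusted p = 0.443), 5.23 in Runx1mut (SE 1.78, adjusted p = 0.755) and 7.79 in miR146aKO (SE 1.95, adjusted p = 0.0949). None was called, and with so few wildtype counts these fitted values depend on the prior count. The miR146aKO_Runx1mut value was 4.68 without A001 and 6.83 without A031, and the Runx1mut value was 4.08 without A021. By limma-voom the values were 5.19 in miR146aKO_Runx1mut, 3.06 in Runx1mut and 6.93 in miR146aKO. With both genotypes lacking miR-146a set against both others, Bcl2a1b gave 4.45 (SE 1.18, edgeR adjusted p = 0.115), although libraries overlapped. This was 3.61 without A001 and 4.69 without A031. Its interaction was -6.68 (SE 2.26, edgeR adjusted p = 0.384). The interaction was -8.35 without A001, -6.19 without A031, -5.56 without A021 and -4.80 by limma-voom. With a Y-linked covariate in the fit, Bcl2a1b had a log2 fold change against wildtype of 7.91 in miR146aKO_Runx1mut, 7.92 in Runx1mut and 10.7 in miR146aKO, an interaction of -10.7 and a value of 5.34 for loss of miR-146a, none of them called. Monocyte and macrophage marker RNA was highest in A150 and A151 (11930 and 9099 CPM), where Bcl2a1b was highest. It was 7837 CPM in A051, where Bcl2a1b was 4.36 CPM, and 1373 CPM in A001, where it was 23.8 CPM. Neutrophil marker RNA was highest in A001 and A021 (60810 and 58380 CPM), which held the most Bcl2a1b within their genotypes. The other genotypes went the other way. Within miR146aKO, A047 had the most neutrophil marker RNA (12340 CPM) and the least Bcl2a1b (4.11 CPM). Within wildtype, A040 had the most (29010 CPM) and held 0 counts of Bcl2a1b.

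Mice carry several near-identical Bcl2a1 genes on chromosome 9, and how a read is shared between them decides what the count of 1 copy means. Bcl2a1b (chr9:89199209-89207827, plus strand, GRCm38), Bcl2a1a (chr9:88956900-88962419, plus strand) and Bcl2a1d (chr9:88723285-88731914, minus strand) each have a coding sequence of 519 bases. Bcl2a1b is 97.88% identical to Bcl2a1a and 98.84% to Bcl2a1d there, and 12 coding positions differ among the 3 genes. The first 120 coding bases hold 7 of them, and are printed from the GENCODE transcripts with the differing bases in capitals.
Bcl2a1a: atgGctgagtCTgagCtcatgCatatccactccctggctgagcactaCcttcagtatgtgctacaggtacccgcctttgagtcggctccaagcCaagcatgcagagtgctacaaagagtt
Bcl2a1b: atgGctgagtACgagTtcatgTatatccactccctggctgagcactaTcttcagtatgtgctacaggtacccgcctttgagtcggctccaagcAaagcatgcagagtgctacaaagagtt
Bcl2a1d: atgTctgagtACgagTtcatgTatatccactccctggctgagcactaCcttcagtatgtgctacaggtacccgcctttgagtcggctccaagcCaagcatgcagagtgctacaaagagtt
Of the 50-base windows of the Bcl2a1b transcript, 57.6% also occur in another of the 3, so the split of counts between copies is uncertain. Bcl2a1b also overlaps the protein-coding gene Gm29094 on its own strand. Each copy had its fewest counts in wildtype as a group. Summed over the 3 genes, counts were 250, 28 and 38 in miR146aKO_Runx1mut, 86, 0 and 69 in Runx1mut, 50, 243 and 231 in miR146aKO and 5, 0 and 1 in wildtype. The summed ratio to the 6 wildtype counts was 63.8 in miR146aKO_Runx1mut (95% counting interval 29.0 to 175), 24.4 in Runx1mut (10.97 to 67.6) and 144 in miR146aKO (65.8 to 395). Fitted as 1 row, the summed counts gave a log2 fold change of 7.10 in miR146aKO against wildtype (SE 1.73, edgeR adjusted p = 0.0855), a setting chosen after the data were seen.

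**Figure D2:**
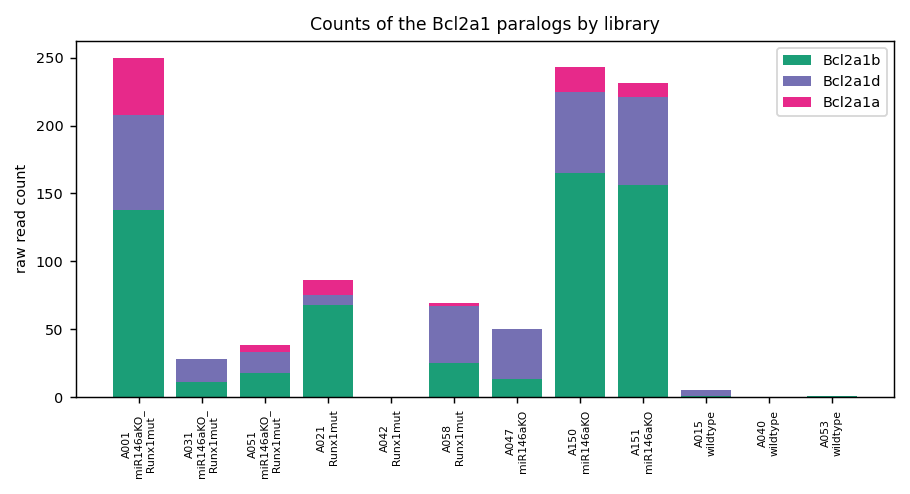
Raw read counts (vertical axis) of Bcl2a1b, Bcl2a1d and Bcl2a1a stacked for each of the 12 libraries, grouped by genotype. The 3 wildtype libraries hold 5, 0 and 1 counts in all, against 50, 243 and 231 in miR146aKO, and A001 holds 250.

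Bcl2l1, which encodes the survival protein Bcl-xL and a shorter death form that gene counts do not separate, varied widely within genotypes. It stood at 6.03, 33.0 and 1.70 CPM in miR146aKO_Runx1mut, 6.53, 44.96 and 11.98 CPM in Runx1mut, 25.9, 4.36 and 1.22 CPM in miR146aKO and 17.2, 10.2 and 5.13 CPM in wildtype. All genotypes overlapped, and its log2 fold changes against wildtype were 0.32 in miR146aKO_Runx1mut, 0.96 in Runx1mut and -0.06 in miR146aKO, each with a 95% interval over 5 units wide. A031 and A042, the highest libraries of their genotypes for Bcl2 and Mcl1, were also the highest for Bcl2l1.

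Bax, an executioner that moves from the cytosol to the mitochondria when activated, was lower in miR146aKO than in wildtype libraries. It was measured at 22.2, 7.995 and 11.9 CPM in miR146aKO_Runx1mut, 5.53, 21.8 and 18.8 CPM in Runx1mut, 12.3, 6.29 and 5.84 CPM in miR146aKO and 15.6, 30.6 and 25.6 CPM in wildtype. The miR146aKO and wildtype libraries did not overlap, with a log2 fold change of -1.55 whose 95% interval was -3.25 to 0.14. Bak1, the executioner that sits on the mitochondria at rest, stood at 136, 61.5 and 192 CPM in miR146aKO_Runx1mut, 158, 113 and 145 CPM in Runx1mut, 117, 109 and 20.2 CPM in miR146aKO and 72.8, 224 and 84.9 CPM in wildtype. Its genotypes overlapped throughout, and its log2 fold changes against wildtype were between -0.64 and 0.12. Bak1 overlaps Ggnbp1 on the other strand, whose reads cannot be told apart from its own. Bax overlaps the protein-coding gene Gm45808 on its own strand, so strand would not separate their reads either.

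Bcl2l11 encodes Bim, the BH3-only protein that rises when blood cells lose their growth factors. It was measured at 1.72, 35.7 and 6.55 CPM in miR146aKO_Runx1mut, 27.8, 24.5 and 25.7 CPM in Runx1mut, 44.6, 74.5 and 69.9 CPM in miR146aKO and 24.9, 3.997 and 37.9 CPM in wildtype. The miR146aKO libraries were above the other 9, and A001 and A051 were among the lowest. For this split too, the share of all genes was not counted. miR146aKO_Runx1mut against miR146aKO gave a log2 fold change of -2.10 (SE 0.94, edgeR adjusted p = 0.320). Without A031, the highest library of its genotype, this was -3.94 (edgeR adjusted p = 0.0918), and by limma-voom it was -3.06. For miR146aKO_Runx1mut against Runx1mut, Bcl2l11 was the member of smallest p, at -0.82 (SE 0.91, edgeR adjusted p = 0.999). The value was -2.66 without A031, -0.30 without A001 and -1.79 by limma-voom. In miR146aKO the survival gene Mcl1 and the death gene Bcl2l11 were thus both at their highest, and Mcl1 per kilobase was 21.4 to 25.2 times Bcl2l11 in miR146aKO, against 11.8 to 128 times in wildtype.

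Bid links death receptors to the mitochondria once caspase-8 has cut it. It was measured at 29.3, 43.9 and 37.3 CPM in miR146aKO_Runx1mut, 48.4, 17.2 and 49.8 CPM in Runx1mut, 17.4, 10.9 and 10.95 CPM in miR146aKO and 20.9, 24.0 and 52.5 CPM in wildtype. All miR146aKO libraries were below all of miR146aKO_Runx1mut and all of wildtype. The log2 fold change was 1.49 in miR146aKO_Runx1mut against miR146aKO (SE 0.61, edgeR adjusted p = 0.276), and 1.35 without A031. It was -1.31 in miR146aKO against wildtype (SE 0.60, edgeR adjusted p = 0.309), and -0.80 without A053. Bid overlaps Bcl2l13 on the other strand.

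Pmaip1 encodes Noxa, a p53-inducible BH3-only protein that targets Mcl1 above all. It was measured at 35.5, 17.4 and 1.21 CPM in miR146aKO_Runx1mut, 8.94, 1.14 and 20.5 CPM in Runx1mut, 8.85, 4.84 and 17.8 CPM in miR146aKO and 0.684, 3.55 and 0.712 CPM in wildtype. All miR146aKO libraries were above wildtype, and 1 library each of miR146aKO_Runx1mut and Runx1mut lay within the wildtype range. Against wildtype the log2 fold change was 3.46 in miR146aKO_Runx1mut (SE 1.37, edgeR adjusted p = 0.484), 2.64 in Runx1mut and 2.68 in miR146aKO, both with a 95% interval that included 0. The miR146aKO_Runx1mut value was 2.50 without A001, 3.48 without A031 and 4.59 without A040. Bbc3, which encodes Puma, another p53-inducible BH3-only protein, was the scarcest member per kilobase in the mean over all 12 libraries, and stood at 7.58, 1.78 and 1.21 CPM in miR146aKO_Runx1mut, 0.142, 3.13 and 7.19 CPM in Runx1mut, 0.316, 0.242 and 7.06 CPM in miR146aKO and 2.33, 0 and 0.142 CPM in wildtype. Libraries of each genotype differed widely and all genotypes overlapped.

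**Figure D3:**
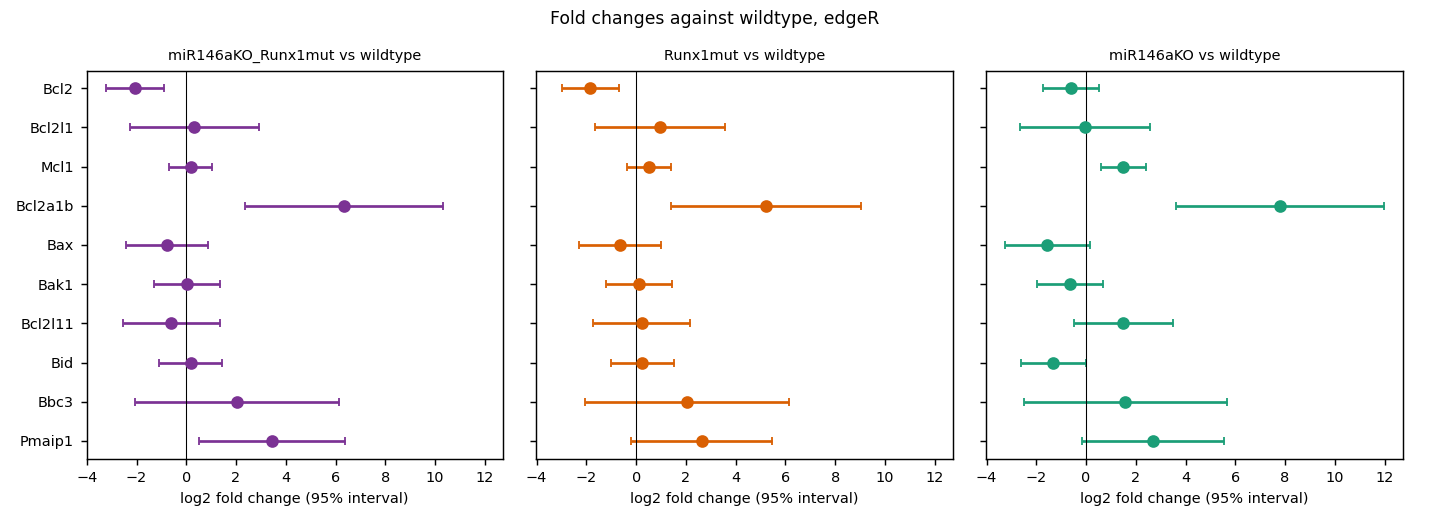
Log2 fold change against wildtype (horizontal axes) of the 10 genes in miR146aKO_Runx1mut, Runx1mut and miR146aKO, with 95% intervals from edgeR. Bcl2 lies at -2.06 and -1.85 in the Runx1-mutant genotypes and at -0.60 in miR146aKO, and Bcl2a1b lies to the right of 0 in all 3; none was called after adjustment over all genes.

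No member passed an adjusted p of 0.05 by edgeR in any of 8 comparisons, and few genes of any kind did. Of all 12744 genes, edgeR called 0% in miR146aKO_Runx1mut against wildtype, 0% in Runx1mut against wildtype and 0.18% in miR146aKO against wildtype. It called 0% in miR146aKO_Runx1mut against Runx1mut and 0.0157% in miR146aKO_Runx1mut against miR146aKO. For the interaction the share was 0.0235%, for loss of miR-146a over both Runx1 backgrounds 0.4%, and for the Runx1 mutation over both miR-146a backgrounds 0.0942%.

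At an unadjusted edgeR p under 0.05 the members were counted against all genes. There were 3 of 10 (Bcl2, Bcl2a1b and Pmaip1) against 9.42% of all genes in miR146aKO_Runx1mut against wildtype. There were 2 (Bcl2 and Bcl2a1b) against 5.52% in Runx1mut against wildtype, and 3 (Mcl1, Bcl2a1b and Bid) against 15.9% in miR146aKO against wildtype. miR146aKO_Runx1mut against Runx1mut gave 0, beside 4.63% of all genes, and against miR146aKO it gave 4 (Bcl2, Mcl1, Bcl2l11 and Bid), beside 14.8%. The interaction gave 2 (Mcl1 and Bcl2a1b) against 9.46%, loss of miR-146a 1 (Bcl2a1b) against 11.8%, and the Runx1 mutation 1 (Bcl2) against 12.6%. The median log2 fold change of the 10 members against wildtype was 0.18 in miR146aKO_Runx1mut (0.03 over all genes tested), 0.38 in Runx1mut (0.01 over all genes) and 0.72 in miR146aKO (0.00 over all genes). On the higher side were 7, 8 and 5 of the 10 members in turn, beside 6534, 6410 and 6360 of 12744 genes. In miR146aKO the members thus split evenly, and 0.72 lies in the gap between Bcl2l1 (-0.06) and Mcl1 (1.496).

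Libraries did not overlap for 2 members (Bcl2 and Bcl2a1b) in miR146aKO_Runx1mut against wildtype, where 13.5% of all genes did not. For Runx1mut against wildtype it was 1 member (Bcl2) beside 12.1% of all genes. In miR146aKO against wildtype it was 6 members, beside 20.9% of all genes. Of these, Mcl1, Bcl2a1b, Bcl2l11 and Pmaip1 were higher and Bax and Bid lower. For miR146aKO_Runx1mut it was 0 against Runx1mut (9.27% of all genes) and 4 against miR146aKO (19.3% of all genes), where Bcl2, Mcl1 and Bcl2l11 were lower and Bid higher. For loss of miR-146a, 6 libraries against 6, it was 0 members beside 0.667% of all genes.

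Other tools called some of these members. DESeq2, which called 1.85% of its genes in miR146aKO_Runx1mut against wildtype, called Bcl2 (adjusted p = 0.0278) and Bcl2a1b (adjusted p = 0.0127). In miR146aKO against wildtype, where it called 7.84%, these were Mcl1 (adjusted p = 0.0192) and Bcl2a1b (adjusted p = 0.000234). It called Mcl1 in miR146aKO_Runx1mut against miR146aKO (adjusted p = 0.0470, 5.92% of all genes), Bcl2a1b for loss of miR-146a (4.05%) and Bcl2 for the Runx1 mutation (adjusted p = 0.00409, 3.8%). It called no member in Runx1mut against wildtype (0.897% of all genes), in miR146aKO_Runx1mut against Runx1mut (0.564%) or for the interaction (1.82%).

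edgeR without a filter on low counts called Bcl2 and Bcl2a1b in miR146aKO_Runx1mut against wildtype (1.33% of 19210 genes), Bcl2 in Runx1mut against wildtype (0.843%), and Mcl1 and Bcl2a1b in miR146aKO against wildtype (4.14%). It called Bcl2a1b for loss of miR-146a (3.25%) and Bcl2 for the Runx1 mutation (2.39%). For miR146aKO against wildtype, Bcl2a1b was also called when only these 2 genotypes were fitted (1.38% of genes) and when A042 was left out (0.756%). limma-voom called 0 to 76 genes in a comparison and no member in any of the 8.

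The balance of the family within a library does not depend on how libraries are scaled. These ratios were chosen with the members' levels known and are given without a test. How often ratios of other gene pairs separate the genotypes was not counted. Mcl1 over Bcl2 per kilobase was 6.27 to 6.86 in miR146aKO_Runx1mut, 5.06 to 10.2 in Runx1mut and 3.56 to 7.39 in miR146aKO, against 0.709 to 2.36 in wildtype. All 9 altered libraries were thus above all wildtype libraries. The levels behind the ratio differed, with Bcl2 low in the Runx1-mutant genotypes and Mcl1 high in miR146aKO. Bcl2 over Bax per kilobase was 0.556 to 3.82 in miR146aKO_Runx1mut, 0.876 to 2.06 in Runx1mut, 4.70 to 8.05 in miR146aKO and 1.64 to 4.80 in wildtype. On this ratio the miR146aKO libraries lay above all Runx1-mutant libraries and overlapped wildtype only through A047 and A053. The 4 survival genes made up 35.9% to 73.4% of the summed level of the 10 members in miR146aKO_Runx1mut, 48.2% to 66.6% in Runx1mut, 71.8% to 89.8% in miR146aKO and 44.6% to 68.7% in wildtype. The miR146aKO library with the highest share, A151, also had the lowest Bak1 of all 12.

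**Figure D4:**
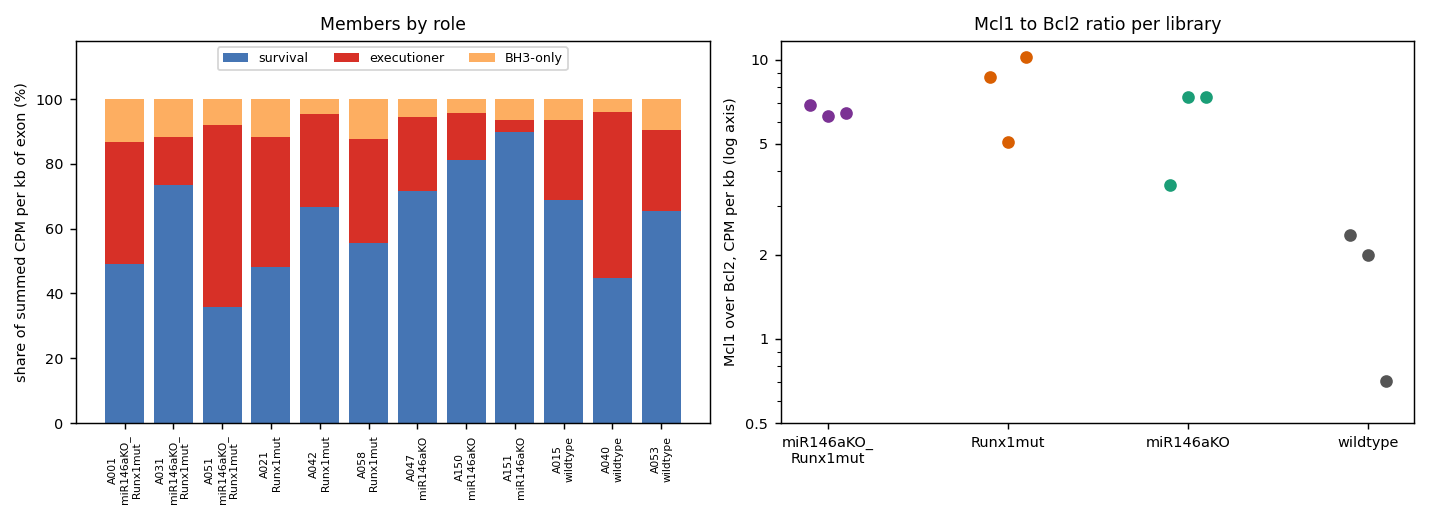
Left, share of the summed CPM per kb of exon (vertical axis, percent) taken by survival, executioner and BH3-only members in each library. Right, Mcl1 over Bcl2 in CPM per kb (log axis) for each library by genotype, with all wildtype libraries at 2.36 or below and all others at 3.56 or above.

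Of 93 further genes in 6 lists of the death and survival pathway, 83 were tested and edgeR called none in any comparison. At an unadjusted p under 0.05 there were 6 higher and 7 lower in miR146aKO_Runx1mut against wildtype (15.7%, beside 9.42% of all genes). There were 3 and 3 in Runx1mut against wildtype (7.23% beside 5.52%) and 12 and 5 in miR146aKO against wildtype (20.5% beside 15.9%). Their median log2 fold change against wildtype was -0.05 in miR146aKO_Runx1mut, -0.02 in Runx1mut and 0.01 in miR146aKO. For the interaction there were 5 and 5 (12% beside 9.46%).

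The list of upstream survival signals, the largest list, held most of these except in Runx1mut against wildtype. There 2 of its 27 genes were higher and 1 lower at p under 0.05 (11.1% beside 5.52% of all genes). In miR146aKO_Runx1mut against wildtype 4 were higher and 4 lower (29.6% beside 9.42%). In miR146aKO against wildtype 7 were higher and 3 lower (37% beside 15.9%). Relb and Nfkbia, a subunit and an inhibitor of NF-kB that are both induced by it, were not called. Relb averaged 32.4 CPM in miR146aKO against 2.96 CPM in wildtype (log2 fold change 3.44, edgeR adjusted p = 0.122, or 2.67 without A047), and Nfkbia 150.9 CPM against 37.0 CPM (2.03, adjusted p = 0.106). Of the other NF-kB subunits, Nfkb1 averaged 111 CPM in miR146aKO against 117 CPM in wildtype, and Rela 86.7 against 86.1 CPM. Nfkb2 averaged 64.4 against 21.2 CPM, and Rel 65.5 against 18.5 CPM. Kit, the stem cell factor receptor and 1 of the sort genes, had a log2 fold change of -2.95 in miR146aKO against wildtype (SE 0.68, edgeR adjusted p = 0.0725). In both Runx1-mutant genotypes Atf4, a stress-response transcription factor, and Csf2rb, the shared signalling chain of the IL-3, IL-5 and GM-CSF receptors, were among the 3 genes of smallest p in the list. Atf4 averaged 335 CPM in miR146aKO_Runx1mut, 321 in Runx1mut, 296 in miR146aKO and 131 in wildtype. Csf2rb averaged 301 CPM in miR146aKO_Runx1mut, 466 in Runx1mut, 149.7 in miR146aKO and 100.8 in wildtype. Their log2 fold changes in Runx1mut against wildtype were 1.29 (SE 0.33) and 2.21 (SE 0.60), both with an edgeR adjusted p of 0.608. The Csf2rb value was 3.20 without A040 and 1.74 without A015. For the Runx1 mutation over both backgrounds they were 0.73 and 1.61 (edgeR adjusted p = 0.231 and 0.167).

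Downstream of Bax and Bak, 20 genes of the apoptosome and caspase list were tested. At an unadjusted p under 0.05 they gave 10% beside 9.42% of all genes in miR146aKO_Runx1mut against wildtype, 0% beside 5.52% in Runx1mut against wildtype and 10% beside 15.9% in miR146aKO against wildtype. Casp8, the initiator caspase of death receptors and the enzyme that cuts Bid, averaged 62.4 CPM in miR146aKO_Runx1mut, 81.7 in Runx1mut, 134 in miR146aKO and 141 in wildtype. For the Runx1 mutation over both backgrounds its log2 fold change was -0.95 (SE 0.27, edgeR adjusted p = 0.187), and that of Casp9, the initiator caspase of the apoptosome, was -1.65 (adjusted p = 0.328). Cycs, which encodes cytochrome c, averaged 94.4 CPM in miR146aKO_Runx1mut against 21.6 CPM in miR146aKO (log2 fold change 2.12, SE 0.62, edgeR adjusted p = 0.157). Birc3, an NF-kB-induced inhibitor of cell death, averaged 113 CPM in miR146aKO (31.6 to 172) against 25.8 CPM in wildtype (11.8 to 43.9). Its log2 fold change was 2.13 (edgeR adjusted p = 0.166), or 1.70 without A151 and 2.75 without A015. Within the death receptor branch, Tnfrsf1b, a TNF receptor without a death domain, averaged 144 CPM in miR146aKO_Runx1mut, 70.4 in Runx1mut, 270 in miR146aKO and 102 in wildtype. For loss of miR-146a over both backgrounds it had a log2 fold change of 1.22 (SE 0.27, edgeR adjusted p = 0.0666). Tnfsf10, which encodes the death ligand TRAIL, averaged 8.16 CPM in miR146aKO_Runx1mut, 14.5 in Runx1mut, 55.1 in miR146aKO and 89.7 in wildtype, with a log2 fold change of -2.69 for the Runx1 mutation (SE 0.79, edgeR adjusted p = 0.201), or -1.25 without A047.

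The p53 arm, which drives Pmaip1, Bbc3 and Bax, had 11 genes tested. At p under 0.05 it gave 0 in miR146aKO_Runx1mut against wildtype, beside 9.42% of all genes. In Runx1mut against wildtype it gave 1 lower (Zmat3), which is 9.09% beside 5.52% of all genes. In miR146aKO against wildtype it gave 1 higher and 1 lower (18.2% beside 15.9% of all genes). There Trp53inp1, the higher one, had a log2 fold change of 2.78 (edgeR adjusted p = 0.283), or 1.46 without A047 and 3.65 without A040. Perp, the lower one, had 0 counts in the miR146aKO libraries and 113 in the wildtype libraries. Among genes for Mcl1 turnover, 0 of 6 had p under 0.05 in any comparison with wildtype, beside 5.52% to 15.9% of all genes. Fbxw7, a ubiquitin ligase subunit for Mcl1, had a log2 fold change of -1.06 in miR146aKO_Runx1mut against miR146aKO (SE 0.45, edgeR adjusted p = 0.300). Among the other Bcl2 family genes, Bcl2l2, the survival gene for Bcl-w, had 1.81 in Runx1mut against wildtype (SE 0.80, edgeR adjusted p = 0.888).

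The genes whose pattern over the 12 libraries was most like that of a member were found by the root mean square difference of centred log2 CPM among 9631 genes. For Bcl2 they were Twsg1, Arhgap35 and Ubqln2, at 0.43 to 0.49 on the log2 scale, where Bcl2 itself had an SD of 1.10. For Mcl1 they were Rasa3, Pdcd2l and Slc7a6os, all at 0.33 with an SD of 0.76. For Bcl2a1b they were Tlr1, Prkcb and Fgr at 1.06 to 1.18 with an SD of 2.56. Bax was nearest to Pofut2 (0.42), Bid to Sf3b6 (0.34), Bcl2l11 to Slc12a4 (0.64), Bcl2l1 to Atp10a (0.80), Bbc3 to Cdkn2aip (0.82) and Pmaip1 to B3gnt9 (1.03).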

How the data were processed

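Per the labels' protocols, RNA of sorted cells was amplified with the NuGEN Ovation v2 kit and made into Nextera XT libraries, which keep no strand. The authors deposited raw read counts per gene. FastQC 0.11.2, HISAT2 2.0.4, featureCounts 1.5.2 and mm10 are named per the submitters' processing notes. For multi-mapped reads, the handling is not given in the sources used here. The deposited sample sheet gives each column its genotype with no replicate number, so libraries are named by column identifier. Mean chi-square per gene between library pairs was 39.1 or more, so no library was counted as a copy.

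edgeR 4.0.16 (R 4.3.3) was used with TMM scaling, its default filter (12744 genes, all 10 members) and 1 quasi-likelihood fit over 12 libraries. Benjamini-Hochberg adjustment ran over all tested genes. The route was tested on simulated data. Alternatives were DESeq2 1.42.0, limma-voom 3.58.1, RLE scaling, no filter, the compared genotypes only, a Y-linked covariate and each library left out. Coordinates, UTRs and lengths came from GENCODE on GRCm38, with Python 3.11.15.

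Fold changes with SE and p are given for members with an unadjusted p under 0.05, otherwise for the member of smallest p, and other members by value, range or interval. Other pathway genes are named among the 3 of smallest p per list and comparison, besides the NF-kB subunits given by mean level only. Members, lists, ratios and comparisons were chosen with earlier results of these data known. The marker list of the lineage gate is not reported here.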

Additional observations from a re-analysis of the deposited data

Results flagged for a closer look

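Bax and Bcl2l11 were picked out because their log2 CPM differences for the Runx1 mutation had opposite signs on the 2 miR-146a backgrounds, in every Runx1-mutant library against the mean log2 level of its comparison group. Neither difference passed its test. For Bax, the log2 CPM difference was 0.71 in miR146aKO_Runx1mut against miR146aKO and -0.79 in Runx1mut against wildtype, and these effects differ by 1.501. edgeR's interaction test gave 1.42 for Bax (95% interval -0.92 to 3.77, adjusted p = 0.725). The 2 Bax effects differ by 1.83 without A031. Without A040, A150 or A151 both mean differences of Bax kept their signs, but not every library did.

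For Bcl2l11 the log2 CPM difference was -2.94 in miR146aKO_Runx1mut against miR146aKO and 0.70 in Runx1mut against wildtype, which differ by -3.65. The edgeR interaction was -2.32 (95% interval -5.10 to 0.46, adjusted p = 0.612). Without A031 the effects differ by -4.73 and the interaction was -4.16 (edgeR adjusted p = 0.234). The opposite signs of Bcl2l11 rest on the wildtype library A040: without it the difference in Runx1mut against wildtype was -0.24, and the 2 effects differ by -2.70. edgeR gave 0.22 for Bcl2l11 in Runx1mut against wildtype, and -0.31 without A040. These leave-one-out values were chosen after the data were seen.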

How the results depend on the processing

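No member was called by edgeR as set out above, and the count of called members moved under these settings. In miR146aKO_Runx1mut against wildtype it was 2 without a low-count filter and 2 by DESeq2. In Runx1mut against wildtype it was 1 without a filter. In miR146aKO against wildtype it was 2 without a filter, 2 by DESeq2 and 1 with only the compared genotypes fitted, and it ran from 0 to 1 when each library was left out (1 without A042). In miR146aKO_Runx1mut against miR146aKO it was 1 by DESeq2. For loss of miR-146a it was 1 without a filter and 1 by DESeq2, as it was for the Runx1 mutation. RLE scaling, limma-voom and the Y-linked covariate gave 0 in every comparison. The cause of these differences was not tested. Y-linked genes summed to 0.547 to 31.98 CPM in wildtype and 99.3 to 242 CPM in miR146aKO, so that covariate runs with the genotype. Over the 17 member fold changes given with an SE, 290 recomputed values kept their direction and side of the threshold, 16 passed the threshold and 0 reversed. Over 18 others, the fold changes given with an adjusted p for other pathway genes and the interactions of Bax and Bcl2l11, the counts were 295, 21 and 0. All 80 levels recomputed with other scalings stayed within 1 SD. No paired analysis was possible because the table's columns carry no replicate number. Bbc3 and Bcl2a1b, with 18 and 2 counts in all wildtype libraries, are limited by depth there.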
